A study of Mus musculus with 6 samples.

Results

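The genes described here are 10 regulators, a set of factors reported to hold back fat cell differentiation together with the Hedgehog Gli factors. They are Sox9, Gli1, Gli2, Gli3, Dlk1, Gata2, Hes1, Nr2f2, Zfp521 and Runx2. The genes were chosen with earlier results of these data known. Their probes were taken by name, as every probe that the platform annotation gives one of these symbols, whatever its signal. Of the 45281 probes on each array 17 carried such a symbol, covering 9 of the 10 genes; no probe was listed for Runx2, which was therefore not analysed here. A probe was kept for testing when its detection p-value, the chance of such a signal among negative control probes, was under 0.05 on at least 3 of the 6 arrays. That left 11 probes of 8 genes, out of 16442 kept probes in all, and 10 of the 11 were detected on all 6 arrays.

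The cells were GFP-positive stromal-vascular cells of adult AdipoTrak mice (PPARgamma-tTA;tetO-H2B-GFP), aged 2 to 6 months, which carry a tetracycline transactivator under the Pparg promoter and, under its control, a fluorescent H2B-GFP histone. The cells thus mark Pparg promoter activity, which both groups were sorted for, and came from inguinal, interscapular and gonadal white fat digested with collagenase. Untreated mice ate normal chow, and rosiglitazone mice ate normal chow with 0.0075% rosiglitazone, a drug that activates the nuclear receptor PPARgamma, for 2 months; all animals carried the same transgenes. Each of the 3 arrays of a group stands for a cohort of 3 to 4 mice; the replicate error is that between pools of animals, and in such bulk RNA fewer cells of a type cannot be told apart from less RNA per cell.

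A progenitor becomes a fat cell when C/EBP factors switch on Pparg, whose product then turns on the genes of lipid storage. Several signals hold this step back. Hedgehog ligands release Smo, which shifts the Gli factors from repressors to activators; Notch ligands and the membrane protein Dlk1 act on neighbouring cells; and Gata2, Sox9, Nr2f2, Zfp521 and Runx2 are transcription factors that repress adipogenic genes or steer mesenchymal cells to cartilage or bone.

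Sox9 was lower and Gli2 higher with rosiglitazone on every array, but of the 11 kept probes only 1, for Sox9, passed an adjusted p of 0.05. That Sox9 probe was 1.89-fold lower, and the brighter Sox9 probe did not pass (limma adjusted p = 0.106). Both Gli2 probes lay higher without passing, at 1.62-fold and 1.44-fold. Dlk1 and Gata2 had negative changes and Hes1 a positive one that did not pass, and the changes of Gli3, Nr2f2 and Zfp521 were smaller than the spread between arrays. Over all kept probes 2.34% passed (385 probes), 0.493% higher and 1.85% lower, against 0 of 11 higher and 1 of 11 lower here. The groups did not overlap for 6 of the 11 probes, where this held for 17.2% of all kept probes. By the brightest kept probe of each gene it held for 4 of 8 regulators. An unadjusted p under 0.05 was reached by 6 of the 11, against 12.1% of all kept probes. Both counts of 6 include both Sox9 and both Gli2 probes, and probes of 1 gene are not independent. The regulators were chosen with earlier results of these data known, so these shares are descriptive only. The median log2 change was -0.09 over the 11 probes, 5 positive and 6 negative, and 0.04 over all kept probes; the median size of the change was 0.48 and 0.18.

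**Figure D1:**
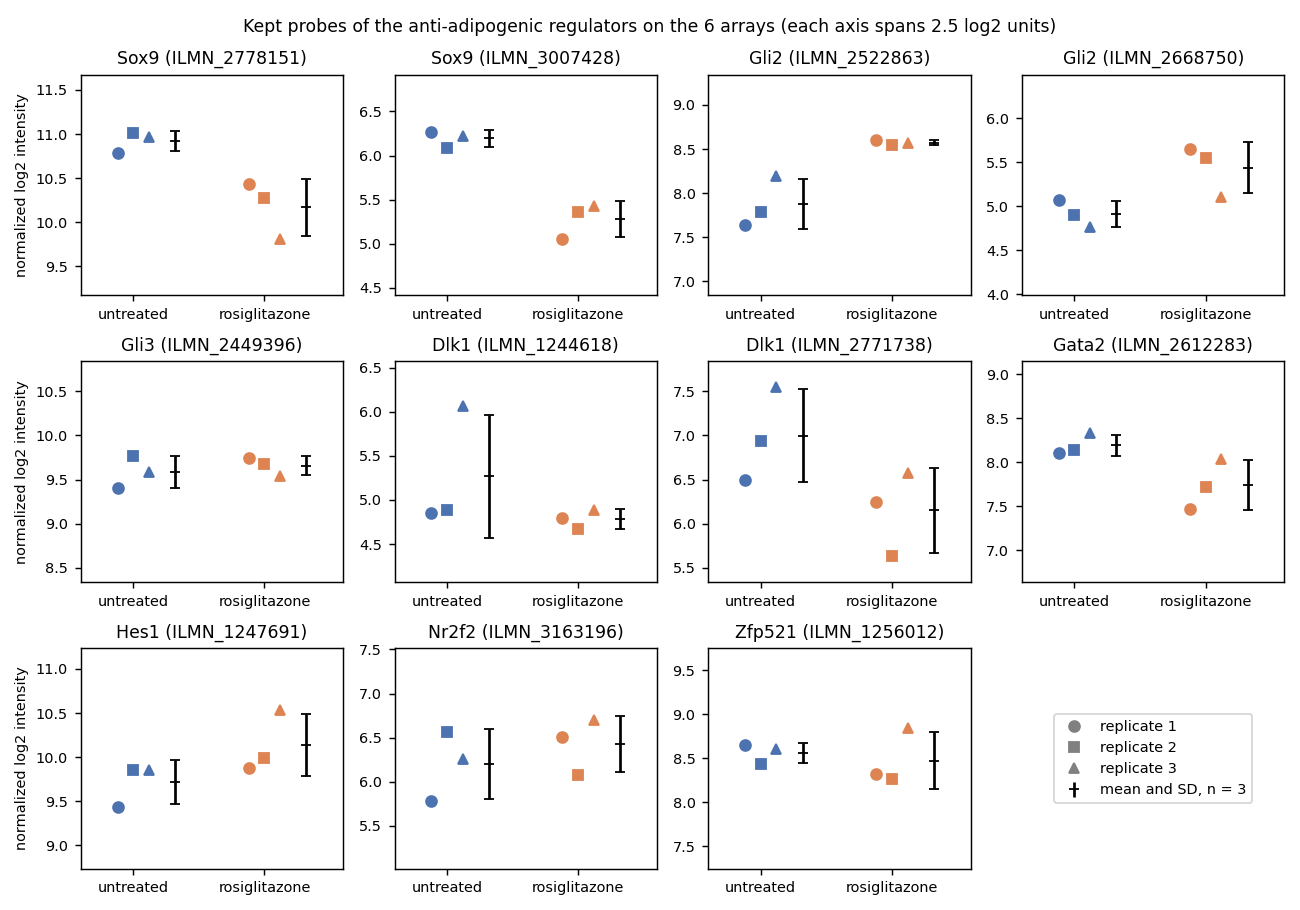
Normalized log2 intensity of the 11 kept probes on each array, untreated in blue and rosiglitazone in orange, with a marker shape for each replicate number and the mean and SD (n = 3) beside them. Each panel spans the same number of log2 units around its own centre. The groups are separate for both Sox9 and both Gli2 probes, Gata2 and Hes1, and overlap for the other 5 probes.

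Total intensity per array was between 9478692 and 14831319 units and 34.2% to 38.4% of the probes were detected, and the number of arrays limits the precision. Over kept probes the Pearson correlation lay within 0.971 to 0.984 inside a group and within 0.957 to 0.974 across groups. The sorted cells expressed progenitor markers from a list chosen with earlier results of these data known. Of its 10 genes 9 were measured and 0 passed in either direction. Their mean was 10.61 to 10.73 log2 units untreated and 10.74 to 10.83 with rosiglitazone. Of 13 measured macrophage markers 12 fell (median log2 change -2.51), and their mean was 9.13 to 9.62 untreated and 6.39 to 7.50 with rosiglitazone; Itgam was detected on no array. Endothelial markers had a median of -0.23 with 0 of 12 past the threshold, and a mean of 7.86 to 8.30 untreated and 7.39 to 8.52 with rosiglitazone, highest on rosiglitazone replicate 3. Of 7 measured mural cell markers, which mark pericytes and smooth muscle, 1 fell, Mcam (1.91-fold lower, adjusted p = 0.0198); the mean was 7.04 to 7.54 untreated and 6.49 to 6.86 with rosiglitazone, and Cnn1 was detected on no array. The count of all called probes was 165 without untreated replicate 1 and 222 without untreated replicate 2.

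Sox9 encodes an HMG-box factor best known for cartilage, and in mouse preadipocytes its product represses C/EBP genes. Probe ILMN_2778151 read 10.79, 11.01 and 10.97 log2 units in untreated cells and 10.43, 10.27 and 9.81 with rosiglitazone. All 3 rosiglitazone cohorts lay below all 3 untreated ones. The mean went from 10.92 ± 0.12 to 10.17 ± 0.32 (SD, n = 3), a log2 change of -0.75 (95% confidence interval -1.20 to -0.31) that did not pass (limma adjusted p = 0.106). The second probe, ILMN_3007428, read 6.27, 6.09 and 6.22 untreated and 5.05, 5.36 and 5.43 with rosiglitazone, again with no overlap. It was the dimmer of the 2 probes, and with rosiglitazone it lay near the lowest detected signals of 4.66 to 4.80. Its mean went from 6.19 ± 0.09 to 5.28 ± 0.20 (SD, n = 3), a log2 change of -0.91 with a standard error of 0.18 and an interval of -1.31 to -0.52 (adjusted p = 0.0229). The intervals of the 2 probes overlap.

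The Sox9 call depended on processing, while its direction did not. ILMN_3007428 lost its call under 9 of 16 other settings. With the 2 probes averaged the log2 change was -0.83 and passed (adjusted p = 0.0158). The call of ILMN_3007428 was lost without background correction, where the change was -0.38 (adjusted p = 0.0628), with median scaling (0.39) and without a detection filter (0.0519). Leaving out any single array other than rosiglitazone replicate 3 also ended it, with adjusted p = 0.13, 0.0638 and 0.0659 without untreated replicates 1, 2 and 3, and 0.0892 and 0.0748 without rosiglitazone replicates 1 and 2. Macrophage and mural markers were lower on the same 3 arrays, and their part in the Sox9 result was not tested.

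**Figure D2:**
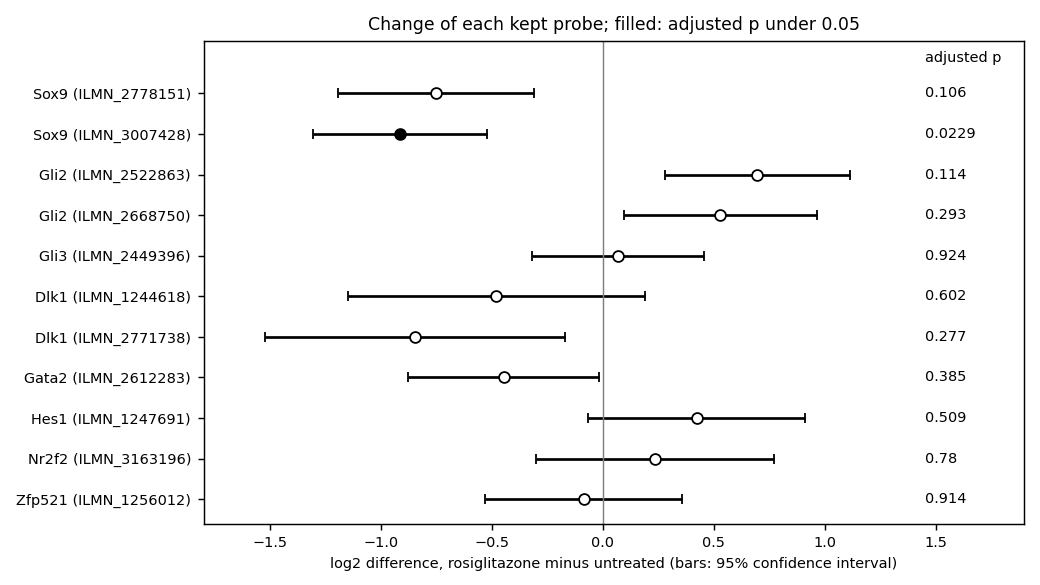
Log2 difference, rosiglitazone minus untreated, for each kept probe (points) with its 95% confidence interval (bars) from limma and the adjusted p at the right; the filled point passed 0.05. The intervals are not adjusted for the number of probes tested. They lie wholly below 0 for both Sox9 probes, Dlk1 probe ILMN_2771738 and the Gata2 probe, and wholly above 0 for both Gli2 probes. Of these only 1 Sox9 probe passed, with an adjusted p of 0.0229.

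The SOX relatives and cartilage genes were listed beside Sox9. Of 19 listed genes 10 were measured, with 1 lower, 0 higher and a median log2 change of -0.10. The one that fell was Sox7, a factor of the endothelial Sox17 group, which read 7.86, 7.47 and 7.53 untreated and 6.04, 6.46 and 6.95 with rosiglitazone (2.20-fold lower, adjusted p = 0.0373). Neither of its 2 other kept probes passed (log2 changes -0.53 and -0.19), and its call was lost under 8 of 16 other settings. The log2 change of Sox17 was -0.74 (adjusted p = 0.129), and its other kept probe had one of -0.22. Sox18, of the same group and chosen after its values were seen, went the other way, with a log2 change of 0.51 (adjusted p = 0.752). The endothelial markers had a median of -0.23 in the same arrays, and their mean was highest, at 8.52, on rosiglitazone replicate 3. Their part in the Sox7 result was not tested.

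Gli2 encodes the Gli factor that carries most of the activating Hedgehog signal. Probe ILMN_2522863 read 7.64, 7.79 and 8.19 log2 units untreated and 8.60, 8.54 and 8.57 with rosiglitazone. The rosiglitazone cohorts lay close together, above every untreated cohort. The mean went from 7.88 ± 0.28 to 8.57 ± 0.03 (SD, n = 3), a log2 change of 0.70 (interval 0.28 to 1.11) that did not pass (adjusted p = 0.114). Probe ILMN_2668750 read 5.07, 4.90 and 4.77 untreated and 5.65, 5.55 and 5.11 with rosiglitazone, near the lowest detected signals of 4.66 to 4.80. Its log2 change was 0.53 (interval 0.09 to 0.96, adjusted p = 0.293), and 0.18 without background correction. Averaged over both probes the change was 0.61 (adjusted p = 0.0876), and neither probe passed under any of the 16 other settings.

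Gli3 encodes the Gli factor that acts mainly as a repressor when no ligand is present. Probe ILMN_2449396 read 9.41, 9.77 and 9.59 untreated and 9.75, 9.68 and 9.54 with rosiglitazone, so the groups overlapped. The log2 change was 0.07, with an interval of -0.32 to 0.46 (adjusted p = 0.924). The other Gli3 probe, ILMN_1215183, was detected on 0 of 6 arrays. Gli1, a target gene that amplifies Hedgehog signalling, had 1 probe, also detected on 0 of 6 arrays. Its deposited intensities were 101.0, 85.8 and 100.8 units untreated and 90.4, 98.8 and 79.4 with rosiglitazone, with detection p-values of 0.138 to 0.732, which leaves the gene's level unknown.

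The other Hedgehog pathway genes did not pass the test either. Of 25 listed genes 14 were measured, 8 with positive and 6 with negative changes; 0 rose, 0 fell and the median log2 change was 0.05. The smallest p-values belonged to the co-receptor gene Cdon, with a log2 change of -0.54 (adjusted p = 0.350), and the cyclin gene Ccnd1, with -0.86 (adjusted p = 0.456). Another kept Cdon probe had a log2 change of 0.10. Among genes chosen after their values were seen, the receptor and target gene Ptch1 read 4.55, 4.61 and 4.88 untreated and 5.02, 4.89 and 5.22 with rosiglitazone, detected on 1 of 3 and 3 of 3 arrays, with a log2 change of 0.36 (adjusted p = 0.482). The signal transducer gene Smo and the Gli inhibitor gene Sufu, chosen in the same way, had log2 changes of 0.03 and -0.26. Gas1, Kif7, Gpr161, Foxf1 and Foxf2 were detected on no array.

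Dlk1, also called Pref-1, encodes an EGF-repeat membrane protein of preadipocytes whose shed form keeps them undifferentiated and, in mouse cells, raises Sox9. Probe ILMN_2771738 read 6.50, 6.94 and 7.55 untreated and 6.25, 5.63 and 6.57 with rosiglitazone. Rosiglitazone replicate 3 lay above untreated replicate 1, so the groups overlapped, and both groups were wide. The log2 change was -0.85 with an interval of -1.52 to -0.17 (adjusted p = 0.277), and shrank to -0.56 when untreated replicate 3 was left out and to -0.59 when rosiglitazone replicate 2 was. Probe ILMN_1244618 read 4.85, 4.88 and 6.07 untreated and 4.79, 4.67 and 4.89 with rosiglitazone, where it was detected on 2 of 3 arrays. Untreated replicate 3 was the highest by far, the other arrays reading within 4.67 to 4.89. The log2 change of -0.48 (adjusted p = 0.602) was -0.07 without that array.

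Promoter windows of Gli2 and Dlk1 are shown because these genes had, after Sox9, the smallest p-values among the regulators, and changes of opposite sign. No window was available for Sox9. Each is the 250 bases before the single start that the RefSeq promoter table on GRCm38.p6 holds for the gene, 5′ to 3′ on the gene's strand: chr1:119053620-119053869 on the minus strand for Gli2 and chr12:109452573-109452822 on the plus strand for Dlk1. These starts are not the outermost ones: they lie 786 bases inside the annotated span of Gli2 and 338 bases inside that of Dlk1, so the windows do not show the bases upstream of either span. Capitals mark any match, on either strand, to AGGTCA (the half-site of nuclear receptors such as PPARgamma and Nr2f2), GACCACCCA (a GLI site) or GATAA (the core of the sites that GATA factors bind).
Gli2: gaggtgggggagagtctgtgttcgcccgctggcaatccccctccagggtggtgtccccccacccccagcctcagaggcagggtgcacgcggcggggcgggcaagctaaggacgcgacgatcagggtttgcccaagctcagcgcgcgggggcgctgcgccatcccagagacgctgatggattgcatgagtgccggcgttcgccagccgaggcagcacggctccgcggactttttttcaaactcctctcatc
Dlk1: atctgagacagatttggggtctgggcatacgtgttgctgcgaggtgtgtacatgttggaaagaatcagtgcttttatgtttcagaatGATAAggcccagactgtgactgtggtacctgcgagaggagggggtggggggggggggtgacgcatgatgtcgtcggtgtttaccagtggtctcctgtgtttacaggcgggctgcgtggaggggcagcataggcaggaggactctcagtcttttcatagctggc
The Dlk1 window held 1 GATAA match and the Gli2 window 0 matches to any of the 3 motifs. Over 32851 promoter windows of this length, GATAA occurred in 22.6%, AGGTCA in 14.0% and GACCACCCA in 0.225%. G and C made up 67.2% of the Gli2 window and 54.8% of the Dlk1 window, against a median of 52.4% over all windows. A match is a stretch of letters, and binding was not measured.

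Hes1 encodes a repressor that Notch switches on, and its effect on adipogenesis depends on the setting. Its probe read 9.43, 9.86 and 9.86 log2 units untreated and 9.88, 9.99 and 10.54 with rosiglitazone. The groups did not overlap, but the lowest rosiglitazone cohort lay just above untreated replicates 2 and 3. The mean went from 9.72 ± 0.24 to 10.14 ± 0.35 (SD, n = 3), a log2 change of 0.42 with an interval of -0.07 to 0.91 (adjusted p = 0.509). Its size was 0.23 without rosiglitazone replicate 3 and 0.28 without untreated replicate 1.

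Notch pathway genes and Dlk relatives had 16 measured members of 25, of which 1 fell, 0 rose and 15 did not pass; 4 changes were positive and 12 negative, and the median was -0.24. The member that fell was Notch3, a receptor abundant in pericytes and smooth muscle, which read 7.86, 7.83 and 7.31 untreated and 6.01, 6.47 and 6.95 with rosiglitazone (2.28-fold lower, adjusted p = 0.0432). Its call was lost under 8 of 16 other settings. Notch1, the receptor gene with the next smallest p-value, read 7.40, 7.43 and 7.31 untreated and 7.02, 6.82 and 7.19 with rosiglitazone, a log2 change of -0.37 (adjusted p = 0.433). The mural markers had a median of -0.46 in the same arrays, and their part in the Notch3 result was not tested.

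Gata2 encodes a zinc-finger factor that, in mouse preadipocytes, binds the Pparg promoter and represses it, and that blood, mast and endothelial cells also use. Its probe read 8.11, 8.14 and 8.33 untreated and 7.47, 7.72 and 8.04 with rosiglitazone. Every rosiglitazone cohort was lower, with replicate 3 nearest the untreated range. The mean went from 8.19 ± 0.12 to 7.75 ± 0.29 (SD, n = 3), a log2 change of -0.45 with an interval of -0.88 to -0.02 (adjusted p = 0.385). Of 4 measured mast cell markers 0 passed, with a median of 0.09; their mean was 5.56 to 5.81 untreated and 5.68 to 5.92 with rosiglitazone, and Fcer1a, Ms4a2, Tpsb2 and Tpsab1 were detected on no array. The endothelial marker means in the same array order were 8.11, 7.86 and 8.30 untreated and 7.39, 7.48 and 8.52 with rosiglitazone. The part of mast cells and endothelial cells in the Gata2 result was not tested. Of the other GATA factors and their FOG cofactors 3 of 7 were measured and 0 passed. Gata6 had a log2 change of 0.34 (adjusted p = 0.509) and Zfpm2, which encodes a FOG cofactor, one of -0.27 (adjusted p = 0.709).

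Nr2f2 encodes COUP-TFII, an orphan nuclear receptor that Hedgehog signalling induces and that represses adipogenic genes in mouse preadipocytes. Of its 4 probes 1 was kept, ILMN_3163196, which read 5.78, 6.56 and 6.26 untreated and 6.51, 6.08 and 6.70 with rosiglitazone. The groups overlapped, and untreated replicate 1 was the lowest of the 6 arrays. The log2 change was 0.23 with an interval of -0.30 to 0.77 (adjusted p = 0.780), and it lay between 0.03 and 0.42 with 1 array fewer. The other 3 probes were detected on 0, 0 and 1 of 6 arrays. Of the related receptors and corepressors 2 of 6 were measured and 0 passed: Nr2f6 had a log2 change of 0.14 (adjusted p = 0.863) and Nr2c1 one of 0.09 (adjusted p = 0.912). The other kept Nr2f6 probe had a log2 change of -0.23.

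Zfp521 encodes a zinc-finger protein that holds back adipogenesis by binding Ebf1 and repressing Zfp423. Probe ILMN_1256012 read 8.65, 8.43 and 8.60 untreated and 8.32, 8.26 and 8.84 with rosiglitazone. The groups overlapped, with rosiglitazone replicate 3 the highest array and the other rosiglitazone arrays the lowest. The log2 change was -0.09 with an interval of -0.53 to 0.36 (adjusted p = 0.914), and it turned to 0.02 without rosiglitazone replicate 2. The second Zfp521 probe was detected on 0 of 6 arrays. Among its partners 5 of 6 were measured, 3 with positive and 2 with negative changes, and 0 passed. Zfp423, which commits cells to the fat lineage, read 5.89, 5.40 and 5.35 untreated and 6.77, 5.79 and 5.71 with rosiglitazone, a log2 change of 0.54 (adjusted p = 0.515). Zfp467 had a log2 change of -0.29 (adjusted p = 0.775).

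**Figure D3:**
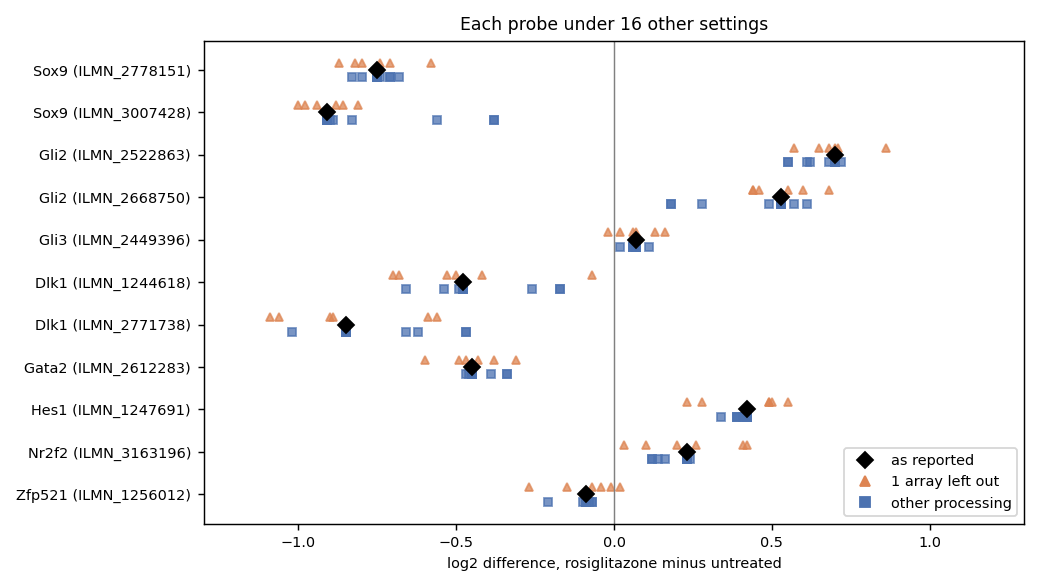
Log2 difference, rosiglitazone minus untreated, of each kept probe as reported (black diamonds), with 1 array left out (orange triangles) and with other processing (blue squares). Both Sox9, both Dlk1 and the Gata2 probes stay below 0 and both Gli2, the Hes1 and the Nr2f2 probes above 0 under all 16 other settings, while Gli3 and Zfp521 each cross 0 once.

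Runx2 itself had no probe listed, and the genes around it gave 10 measured members of 18, 5 with positive and 5 with negative changes and 0 past the threshold (median 0.01). The corepressor gene Cbfa2t3 had a log2 change of 0.70 (adjusted p = 0.264), while its other kept probe had one of -0.01. Runx1, a relative of Runx2 used by blood cells, read 5.65, 4.95 and 5.08 untreated and 4.76, 4.70 and 4.28 with rosiglitazone, detected on 3 of 3 and 1 of 3 arrays, with a log2 change of -0.65 (adjusted p = 0.266). Runx3 and the osteoblast factor gene Sp7 were detected on no array.

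Further genes reported to restrain adipogenesis were as mixed. Of 17 listed 16 were measured, 8 with positive and 8 with negative changes, 0 passed, and the median was -0.01. Trps1, a GATA-type repressor gene, had the smallest p-value, with readings of 6.68, 7.37 and 6.98 untreated and 6.34, 6.39 and 5.40 with rosiglitazone. Its log2 change of -0.96 did not pass (adjusted p = 0.161), and the 2 further Trps1 probes kept had changes of -0.21 and -0.15. Irf3, an interferon-response factor gene, had a log2 change of 0.43 (adjusted p = 0.365), with other kept probes at -0.07 and 0.23.

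On the opposing side, 9 of 13 adipogenic transcription factors were measured; 1 rose, 0 fell and the median was 0.11. The one that rose was Srebf1, a lipid synthesis factor, from 5.02, 5.09 and 4.69 untreated to 6.01, 5.90 and 5.86 with rosiglitazone (1.99-fold higher, adjusted p = 0.0159), a call lost under 7 of 16 other settings. The Krueppel-like factor gene Klf5 had a log2 change of 0.41 (adjusted p = 0.603). Pparg, whose promoter also drove the sort and which was chosen after its values were seen, read 9.12, 9.02 and 9.14 untreated and 8.89, 8.84 and 9.38 with rosiglitazone (log2 change -0.06, adjusted p = 0.946).

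**Figure D4:**
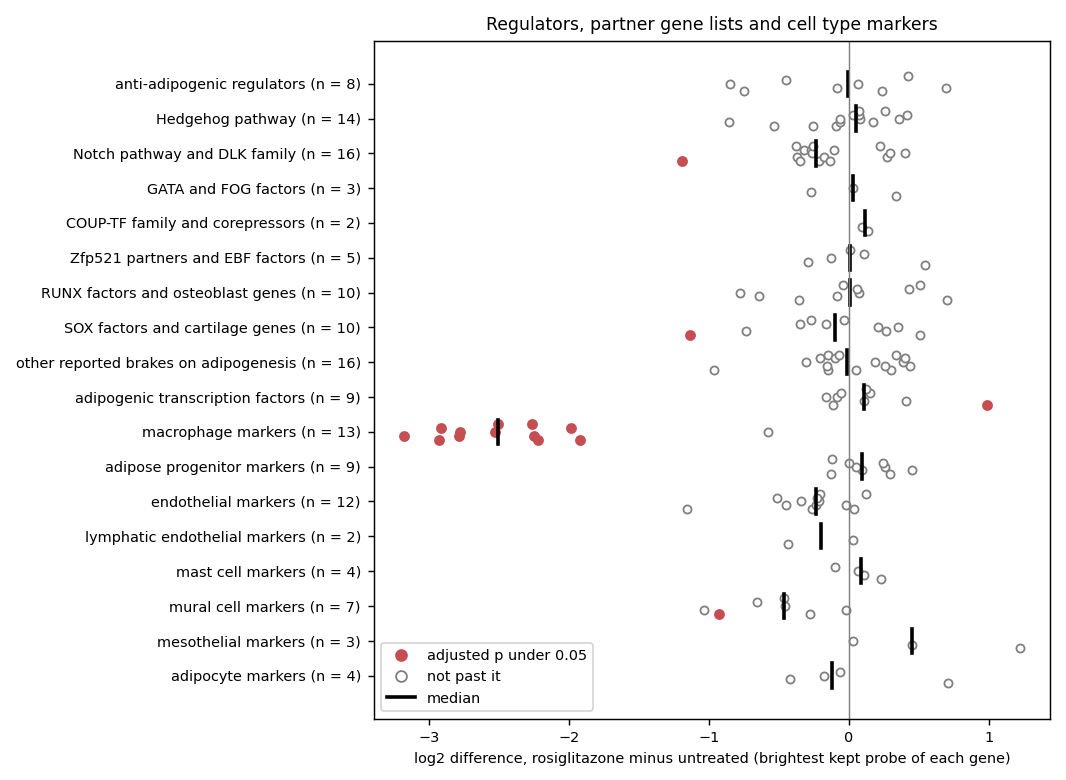
Log2 difference, rosiglitazone minus untreated, of the brightest kept probe of each measured gene, by list, with the list's median as a black bar; filled points passed an adjusted p of 0.05. The 8 measured regulators lie on both sides of 0 with a median of -0.01, the macrophage markers lie far to the left with a median of -2.51, and Notch3, Sox7, Srebf1 and Mcam are the points past the threshold outside the macrophage list. Sox9 is drawn by its brighter probe, which did not pass, and its called probe is not shown.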

How the data were processed

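RNA of 6 sorted pools, 3 untreated and 3 rosiglitazone, was labelled as biotinylated cRNA for Illumina arrays, per the labels' protocols. The authors deposited a non-normalized intensity for each probe, on a linear scale, and a detection p-value beside it. They also deposited intensities normalized between arrays, by a method not given in the sources used here; the series table equals these. From the non-normalized table, normexp background correction (offset 16, from the detection p-values), quantile normalization and log2 were computed, and groups compared with lmFit and eBayes (limma 3.58.1, R 4.3.3) without covariates, with Benjamini-Hochberg adjustment over 16442 kept probes. The offset understates changes of dim probes. Symbols came from the platform annotation; all 17 regulator probes matched RefSeq by Entrez number. Outside the regulators a gene is its brightest kept probe, and so is a regulator where the lists are compared. The level of a gene detected on no array is unknown. Named genes were every regulator probe, pathway list genes past the threshold, the 2 smallest p-values per pathway list, and the 2 genes most correlated with each of the 3 regulators of smallest p; marker lists of other cell types are given by counts and means, and genes named besides these were chosen after their values were seen. The regulators and lists were chosen with earlier results of these data known. The code was tested on simulated data. The replicate numbers were not treated as pairs: deviations of same-numbered arrays correlated at 0.04, -0.01 and 0.35. The 16 alternatives covered background, scaling, source table, filter, variance, weights, replicate block, probe averaging and each array left out.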

Additional observations from a re-analysis of the deposited data

How the results depend on the processing

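Over 176 recomputed values for the 11 regulator probes under 16 other settings, 163 kept both direction and side of the threshold. All but 1 of the probes had not passed as reported, so most of these values are uncalled probes that stayed uncalled. The called Sox9 probe lost its call under 9 of the 16 settings. The count of regulator probes past the threshold, 1 as reported, was 0 without background correction, with median scaling, on the authors' normalized table and without a detection filter, 2 with a trended, robust variance (both Sox9 probes), and 0 to 1 with each array left out. On the authors' table the called Sox9 probe changed by -0.38 (adjusted p = 0.0629). The sign turned for Gli3 without untreated replicate 1 (range -0.02 to 0.16 with 1 array left out) and for Zfp521 without rosiglitazone replicate 2 (range -0.27 to 0.02); the cause was not tested. Of all kept probes 385 passed as reported, 152 of 45281 without a filter, where more probes were tested, and 165 to 425 with each array left out. With the replicate number as a block 464 passed, and 1 regulator probe, the same Sox9 probe (adjusted p = 0.0304); 2 of 6 arrays correlated best with their own number. Probes near background change size with the background correction. The log2 change was 0.53 for ILMN_2668750 of Gli2 and -0.48 for ILMN_1244618 of Dlk1 as reported, and 0.18 and -0.17 without it. For the called Sox9 probe, ILMN_3007428, which was dim with rosiglitazone, it was -0.91 as reported and -0.38 without background correction.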

Other observations

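The genes whose brightest kept probe followed a regulator most closely over the 6 arrays are given as a description, the closest of 9758 genes compared; how often such values arise by chance was not tested. The called Sox9 probe had a Pearson r of 0.997 with the non-classical MHC gene H2-M2, which fell (log2 change -3.67, adjusted p = 0.000357), and 0.995 with Cpne8, a copine gene (log2 change -0.38, adjusted p = 0.384); 75 genes (0.769%) had an r over 0.95. Gli2 probe ILMN_2522863 had an r of 0.996 with the alcohol dehydrogenase gene Adh1, which rose (log2 change 1.00, adjusted p = 0.0462), and 0.995 with Dbt, a gene of branched-chain amino acid breakdown (log2 change 0.41, adjusted p = 0.372); 59 genes (0.605%) had an r over 0.95. Dlk1 probe ILMN_2771738 had an r of 0.990 with Zfp827 and 0.981 with the kinase gene Mark2, neither of which passed (log2 changes -0.28 and -0.16), and 18 genes (0.184%) had an r over 0.95. The arrays of a group share their treatment, so genes that both differ between the groups are correlated over these arrays.

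Among the lists of other cell types, mesothelial markers had 3 of 6 members measured, all 3 with positive changes and 0 past the threshold; their mean was 5.91, 5.60 and 5.52 untreated and 6.84, 6.50 and 5.41 with rosiglitazone. Adipocyte markers had 4 of 8 measured, 0 past the threshold, a median of -0.12 and a mean of 8.01 to 8.24 untreated and 7.91 to 8.46 with rosiglitazone. Fabp4 was detected on no array, which leaves its level unknown. Lymphatic endothelial, Schwann cell and lymphocyte markers had 2, 1 and 1 members measured and 0 past the threshold.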
